A study of Caenorhabditis elegans with 15 samples.

Results

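Lysozymes are secreted enzymes that cut the peptidoglycan of bacterial cell walls. The lys genes of Caenorhabditis elegans encode lysozymes related to those of protists, and several are known from the intestine, where the worm digests bacteria and meets pathogens. The intestinal gene lys-1 is known to respond to Serratia marcescens, and lys-7 and lys-8 are known targets of the insulin-pathway factor DAF-16. A secreted protein of this kind is translated from a capped mRNA, and the cap is bound by eIF4E, of which the worm has several paralogs. The paralog IFE-1 is best known from mRNPs of the germ line, whereas the intestine is a somatic tissue.

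The set comprised 8 genes, defined as the consecutive WormBase IDs WBGene00003090 to WBGene00003097 and taken as lys-1 to lys-8 in that order, out of 46934 genes in the deposited table. The names come with this definition. The gene table used here pairs 0 WormBase IDs with symbols, so the names were not checked against the IDs, and the intestinal origin of the RNA was not checked against marker genes.

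Whole worms of 3 strains were grown for 3 days at 20 °C on OP50 and chicken egg plates, and they purged their gut before they were frozen. In strain KX155 the CRISPR alleles mKate::ife-1 on chromosome III and GFP::ife-3 on chromosome V put a tag on each paralog at its own locus. An RFP trap collected mKate::IFE-1 with its RNA (IFE-1 pull-down), a GFP trap collected GFP::IFE-3 with its RNA (IFE-3 pull-down), and total RNA came from the same strain, so all 3 groups carried both tagged eIF4Es. Strain LP307 (mKate::PH Chr II insertion) gave the mKate-tag control from the RFP trap, and strain LP306 (GFP::PH Chr II insertion) gave the GFP-tag control from the GFP trap. Which promoter drives the PH insertions is not given in the sources used here, nor is a tag on their own eIF4Es named. Each of the 5 groups had 3 libraries that the labels call biological replicates, and each library gives TPM, a level per transcript length whose sum is fixed. Depth is unknown. The design text of the series states that mRNA was poorly represented in the tag controls.

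By symbol, RefSeq placed all 8 genes on the WBcel235 assembly as protein-coding genes. The genes lys-1 (WBGene00003090, V:10277904-10279056), lys-2 (WBGene00003091, V:10280307-10281474) and lys-3 (WBGene00003092, V:10282100-10283544) lay next to each other, with gaps of 1250 and 625 bases and 0 annotated genes between them. Another cluster held lys-4 (WBGene00003093, IV:11621429-11623174), lys-5 (WBGene00003094, IV:11624252-11625582) and lys-6 (WBGene00003095, IV:11626910-11627947), with gaps of 1077 and 1327 bases and again 0 genes between them. The genes lys-7 (WBGene00003096, V:3481432-3482600) and lys-8 (WBGene00003097, II:5586178-5587651) stood alone. The end of lys-8 overlapped the protein-coding gene C17G10.13 by 38 bases, and lys-4 overlapped the 21-base piRNA gene 21ur-8714. The labels' protocols name a non-directional kit, so reads from these overlaps could come from either gene. None of the 8 genes had the same values as another gene in every library.

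Transcripts of 6 of the 8 genes were measured and those of lys-5 and lys-6 were close to 0. Levels below are scaled TPM, in which each library was divided by a median-ratio factor computed over all 15 libraries. Over these libraries lys-8 had the highest mean level, 39.4 scaled TPM, followed by lys-4 with 30.5, lys-1 with 27.8, lys-7 with 8.50, lys-2 with 4.89 and lys-3 with 2.04. Both clusters thus joined genes of unlike level. Within a library lys-8 was the highest of the set in 10 of 15, lys-4 in 3 and lys-1 in 2. In total RNA the mean of lys-8 exceeded that of 94.1% of the 14308 genes measured, that of lys-1 exceeded 89.8%, and that of lys-3 exceeded 27.7%.

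The genes beside lys-4 on chromosome IV did not pass the filter, which asked for 1 TPM or more in 3 or more libraries of a fit. The gene lys-5 was listed at 0 in 3 of 15 libraries and reached 0.438 TPM at most, and lys-6 was listed at 0 in 4 and reached 0.549 TPM. Their neighbour lys-4 was above 14 scaled TPM in every library, with a lowest value of 14.9. No comparison was tested for lys-5 and lys-6.

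**Figure D1:**
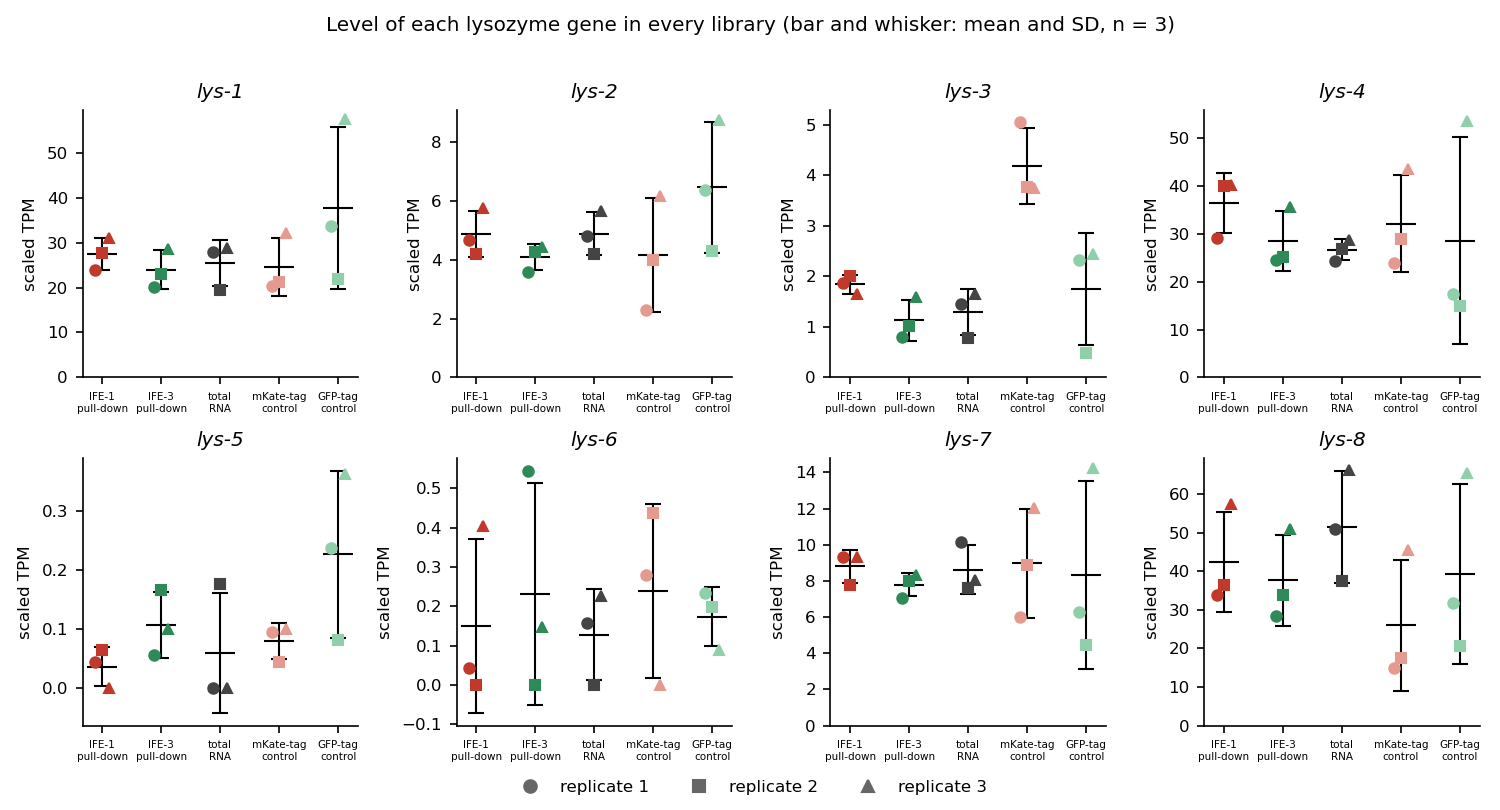
Scaled TPM (y axis, a scale of its own for each gene) of lys-1 to lys-8 in the 5 groups (x axis), with a point per library shaped by replicate and the mean and SD as bar and whisker. The lys-3 points of the mKate-tag control lie between 3.74 and 5.05, above all other lys-3 points, while the groups of lys-1, lys-2, lys-7 and lys-8 overlap.

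The set as a whole was a small part of each library. It held 0.0116 ± 0.00250% of the TPM in IFE-1 pull-down, 0.0102 ± 0.00281% in IFE-3 pull-down and 0.00932 ± 0.00228% in total RNA (SD, n = 3 each). In the tag controls the share was 0.0113 ± 0.00326% with mKate and 0.0154 ± 0.00816% with GFP (SD, n = 3 each). The order of these means depends on the total, since without the 10 highest genes total RNA, at 0.0370%, was above IFE-1 pull-down at 0.0350% and IFE-3 pull-down at 0.0280%. The range of the GFP-tag control, from 0.00848 to 0.0244%, enclosed the values of all other libraries except the 0.00688% of total RNA replicate 2. The 10 highest genes of the table took 57.6 to 75.5% of the TPM of a library, which sets the scale of these shares.

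The comparisons ask which lysozyme RNAs differed between groups relative to the other RNAs of a library. The sum of TPM is fixed, so they do not measure how much RNA the beads held. No lysozyme gene was called in the main fit of any of the 7 comparisons. Each was fitted over all genes with limma, without the replicate number, and called at an adjusted p under 0.05. With the number as a block, lys-3 was called between IFE-1 pull-down and mKate-tag control (limma adjusted p = 0.0363), as were 12.7% of all genes. Differences refer to log2 of the scaled TPM plus 1, and this addition makes those of low genes such as lys-3 smaller. In these bulk samples fewer cells of a type and less RNA per cell cannot be told apart.

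Between IFE-1 pull-down and total RNA no lysozyme gene passed the test, and lys-4 came closest, with a higher level in IFE-1 pull-down. Of the 6 genes tested, 0 were called with limma, where 10.2% of all genes were called. At an unadjusted p under 0.05 there was 1, lys-4, against 26.4% of all genes, and the groups did not overlap for 2, lys-3 and lys-4, against 32.8%. On the log2 scale the median difference was 0.08 for the 6 genes and -0.01 for all genes. The 95% intervals of the 6 fold changes lay between -0.93 and 0.82, so differences of up to about that size are not excluded.

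On this scale the difference of lys-4 was the largest of the 6, while with a pseudocount of 0.1 that of lys-3 was larger, 0.53 against 0.43. Its level was 29.2, 39.9 and 40.2 scaled TPM in replicates 1, 2 and 3 of IFE-1 pull-down. In the same replicates of total RNA it stood at 24.4, 26.9 and 28.8. All IFE-1 pull-down libraries were above all total RNA libraries, the lowest of the former by a small margin. The log2 fold change was 0.42 ± 0.17 SE (95% interval 0.03 to 0.82, limma adjusted p = 0.165), and it was called in 0 of 13 other fits, in which the limma adjusted p ran from 0.0514 to 0.663. With TPM as deposited the log2 fold change was 0.70. The mKate-tag control reached the same range, at 24.0, 28.9 and 43.5, and 2 of its 3 libraries were above total RNA replicate 3.

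For lys-3 the difference on the log2 scale was 0.31 ± 0.19 SE, with an adjusted p of 0.348 by limma, and it was 0.15 without total RNA replicate 2. Over 12 other fits the value ran from 0.11 to 0.53 and the limma adjusted p from 0.193 to 0.709. Its groups were apart by little, with the lowest IFE-1 pull-down library at 1.643 scaled TPM and the highest total RNA library at 1.641. For lys-1, lys-2 and lys-7 the libraries of both groups overlapped. In IFE-1 pull-down lys-1 was at 27.5 ± 3.57 scaled TPM and in total RNA at 25.4 ± 5.16, and lys-2 was at 4.88 ± 0.793 and 4.88 ± 0.725 (SD, n = 3 each). The DAF-16 target lys-7 was at 8.80 ± 0.896 in IFE-1 pull-down and 8.61 ± 1.35 in total RNA (SD, n = 3 each).

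Nor did any lysozyme gene pass the test between IFE-3 pull-down and total RNA. Of the 6 genes 0 were called with limma, 0 had an unadjusted p under 0.05 and 0 had groups that did not overlap, against 11.2%, 26.9% and 31.6% of all genes. The median log2 fold change was -0.10, against 0.03 for all genes, and 5 of the 6 values were below 0. The 95% intervals lay between -1.09 and 0.48. These signs depend on the scaling. With TPM as deposited only lys-8 was below 0, at -0.12, and the median of all genes moved to 0.27. The lowest value was that of lys-8, which is described with its levels below. Means of lys-1, lys-2, lys-4 and lys-7 in IFE-3 pull-down were 23.9 ± 4.34, 4.09 ± 0.442, 28.5 ± 6.29 and 7.78 ± 0.642 scaled TPM (SD, n = 3 each). Both pull-downs were set against the same total RNA libraries.

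Between the paralogs, all 6 genes had a higher mean log2 level in IFE-1 pull-down than in IFE-3 pull-down, but none was called. The log2 differences ran from 0.15 for lys-7 to 0.41 for lys-3, with a median of 0.19 against 0.02 for all genes. By limma 0 of 6 were called, against 1.52% of all genes, and 0 had an unadjusted p under 0.05, against 16.6%. The groups did not overlap for 1 gene, lys-3, against 20.8% of all genes. The 95% intervals of the 6 differences lay between -0.49 and 0.85. For lys-3 the difference had an SE of 0.19 (limma adjusted p = 0.345), with an adjusted p of 0.153 to 0.752 over 12 other fits. The sign of lys-8 rested on single libraries, since its 0.16 became -0.07 without IFE-1 pull-down replicate 3 and -0.01 without IFE-3 pull-down replicate 1. The replicate numbers paired these libraries, and with the number as a block there was likewise 0 called.

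**Figure D2:**
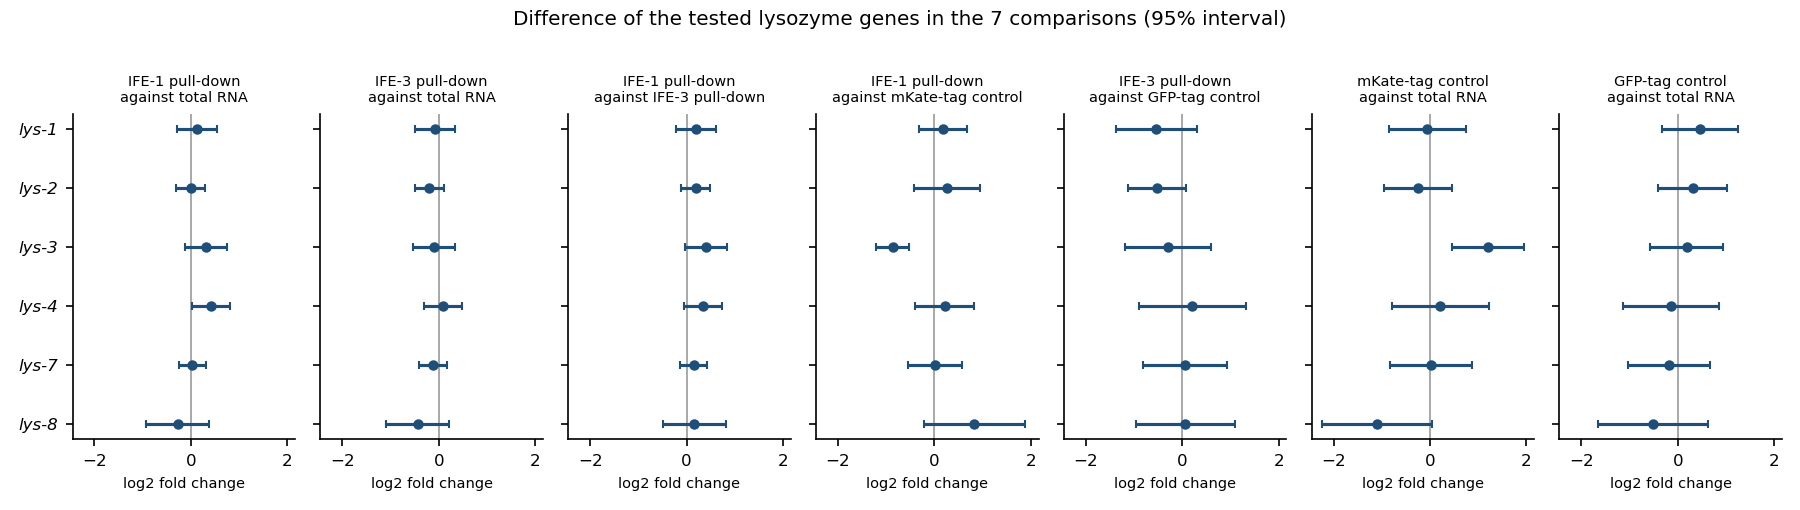
Log2 fold change (x axis) of the 6 tested lysozyme genes (y axis) in each of the 7 comparisons, with 95% intervals from limma. The intervals of lys-3 lie on opposite sides of 0 for IFE-1 pull-down against mKate-tag control and for mKate-tag control against total RNA, and that of lys-4 for IFE-1 pull-down against total RNA starts at 0.03.

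The tested gene with a group apart from all others was lys-3, and the group was the mKate-tag control. It stood at 5.05, 3.76 and 3.74 scaled TPM in its replicates 1, 2 and 3. In IFE-1 pull-down from the same trap it stood at 1.88, 2.01 and 1.64, and in total RNA at 1.45, 0.778 and 1.64. Every mKate control library was above every library of the other 4 groups, since IFE-3 pull-down stood at 0.789, 1.01 and 1.58 and the GFP-tag control at 2.32, 0.477 and 2.44. The share of all genes with a group apart from all others was not computed. In pairs, the mKate-tag control did not overlap IFE-1 pull-down for 33.9% of all genes and total RNA for 36.9%.

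Against mKate-tag control the log2 fold change of lys-3 in IFE-1 pull-down was -0.87 ± 0.14 SE (95% interval -1.21 to -0.52), and the limma adjusted p of 0.0519 missed the threshold. With the replicate number as a block the limma adjusted p was 0.0363 and lys-3 was called, as were 12.7% of all genes. Over 12 other fits the limma adjusted p of lys-3 ran from 0.0363 to 0.196. Against total RNA the mKate-tag control was higher by 1.20 ± 0.33 SE on the log2 scale (95% interval 0.45 to 1.95, limma adjusted p = 0.0997). It was called at a limma adjusted p of 0.0479 with TPM as deposited, where 6.11% of all genes were called and the median of all genes moved to 0.42, and at 0.0259 with all 15 libraries in a single fit, where 8.16% were. Over 12 other fits the limma adjusted p of this difference ran from 0.0259 to 0.307. The mKate-tag control and total RNA differ in strain, bait and batch, which cannot be told apart. IFE-1 pull-down and the mKate-tag control share the trap but differ in strain and bait. These cannot be told apart either, since total RNA came from KX155 only.

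The difference of lys-3 between IFE-1 pull-down and the mKate-tag control was not mirrored by the genes beside it. In the mKate-tag control lys-1 was at 20.4, 21.3 and 32.0 scaled TPM, which overlapped both IFE-1 pull-down and total RNA. There lys-2 was at 2.30, 3.98 and 6.18, and overlapped them too. Replicate 1 of the mKate-tag control was the lowest of its group for lys-1, lys-2, lys-4, lys-7 and lys-8 and the highest for lys-3. For lys-1 this held only after scaling, since in TPM as deposited replicate 1 was at 25.9 and replicate 2 at 24.0.

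Over the 6 genes, IFE-1 pull-down against mKate-tag control gave 0 calls with limma, against 0.474% of all genes. One gene, lys-3, had an unadjusted p under 0.05, against 27.4% of all genes, and it was also the only one of the 6 whose groups did not overlap, against 33.9%. The median log2 fold change was 0.20, against 0.01 for all genes, and the 95% intervals lay between -1.21 and 1.87. For mKate-tag control against total RNA limma called 0 of 6, against 1.17% of all genes. Again lys-3 alone had an unadjusted p under 0.05, against 20.9%, and groups that did not overlap, against 36.9%. The median log2 difference was -0.02, against 0.00 for all genes, and the 95% intervals lay between -2.24 and 1.95.

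The libraries of the mKate-tag control differed most in lys-8. Its level there was 14.9, 17.5 and 45.4 scaled TPM in replicates 1, 2 and 3. In IFE-1 pull-down it was 33.8, 36.3 and 57.4, and in total RNA 50.9, 37.3 and 66.3. Replicates 1 and 2 of the mKate-tag control were below all other libraries of the 15, and replicate 3 was within the range of IFE-1 pull-down and total RNA. The log2 fold change of IFE-1 pull-down over mKate-tag control was 0.83 ± 0.44 SE (95% interval -0.22 to 1.87, limma adjusted p = 0.262). With the replicate number as a block lys-8 was not called (limma adjusted p = 0.0537). The fold change was then 0.83 ± 0.19 SE (95% interval 0.33 to 1.32). Without mKate-tag control replicate 3 it was 1.30 ± 0.26 SE and lys-8 was called (limma adjusted p = 0.0403), together with lys-3, whose log2 difference was -0.93 ± 0.16 SE (limma adjusted p = 0.0390), where again 12.7% of all genes were called. The value was 0.53 without mKate-tag control replicate 1 and 0.58 without IFE-1 pull-down replicate 3. Over 13 other fits the limma adjusted p of lys-8 ran from 0.0403 to 0.513.

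Total RNA had the highest group mean of lys-8, 51.5 ± 14.5 scaled TPM, and the mKate-tag control the lowest, 25.97 ± 16.9 (SD, n = 3 each). Between them came IFE-1 pull-down with 42.5 ± 12.96, the GFP-tag control with 39.2 ± 23.3 and IFE-3 pull-down with 37.6 ± 11.7 (SD, n = 3 each). No pair of groups was free of overlap, so this order does not exceed the spread of libraries taken without their replicate number. Within replicates 1, 2 and 3 of scaled TPM, total RNA was the highest library and the mKate-tag control the lowest each time. The order also depends on the scaling. With TPM as deposited the GFP-tag control had the highest mean, 49.4, followed by IFE-1 pull-down with 40.7 and total RNA with 40.6. Against total RNA the log2 fold change of lys-8 was -0.44 ± 0.29 SE in IFE-3 pull-down (limma adjusted p = 0.375) and -0.28 ± 0.29 SE in IFE-1 pull-down (limma adjusted p = 0.592). With the replicate number as a block the SE was 0.14 in both (limma adjusted p = 0.0716 and 0.213), and neither was called. In the tag controls the log2 fold change without the block was -1.10 ± 0.51 SE with mKate (limma adjusted p = 0.255). With GFP it was -0.51 ± 0.51 SE (limma adjusted p = 0.636). With TPM as deposited the sign of the GFP value turned. The value was then -0.12 in IFE-3 pull-down and 0.01 in IFE-1 pull-down.

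The lysozyme genes were uneven within both tag controls. Coefficients of variation of the 6 genes ran from 34.4 to 75.5% in the GFP-tag control and from 17.9 to 65.1% in the mKate-tag control, which was the more uneven of both for lys-2 and lys-8. They ran from 9.97 to 30.5% in IFE-1 pull-down, 8.25 to 36.4% in IFE-3 pull-down and 8.32 to 35.1% in total RNA. In the GFP-tag control the gene lys-1 stood at 33.8, 21.9 and 57.5 scaled TPM in replicates 1, 2 and 3, and lys-4 at 17.4, 14.9 and 53.5. Replicate 3 was far above the others for lys-4, and replicates 1 and 2 held the lowest lys-4 values of all 15 libraries.

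Against GFP-tag control, IFE-3 pull-down gave 0 calls among the 6 genes with limma, 0 with an unadjusted p under 0.05 and 0 without overlap, against 0.0898%, 12.5% and 18.5% of all genes. The median log2 fold change was -0.12, against 0.02 for all genes. The 95% intervals reached from -1.38 to 1.32. GFP-tag control against total RNA likewise gave 0, 0 and 0, against 1.04%, 18.1% and 21.7%. Its 95% intervals lay between -1.66 and 1.25, with a median log2 difference of 0.02 against 0.01 for all genes. With TPM as deposited lys-1 was called higher in the GFP-tag control than in total RNA, by 1.16 ± 0.34 SE on the log2 scale (limma adjusted p = 0.0408), where 22.2% of all genes were called. That setting moved the median of all genes to 0.55. With scaled libraries the value was 0.46 ± 0.35 SE (limma adjusted p = 0.523), and over 13 other fits the limma adjusted p ran from 0.0408 to 0.849. It was 0.12 without GFP-tag control replicate 3, 0.80 without its replicate 2 and 0.28 without total RNA replicate 2.

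Whether a paralog differed from its own control unlike the other was tested as a contrast of the 12 pull-down libraries. None of the 6 genes was called with limma (adjusted p from 0.353 to 0.997, 0 with an unadjusted p under 0.05), against 0.319% of all genes. The values were largest for lys-2, lys-8 and lys-1, with 0.78 ± 0.40, 0.77 ± 0.67 and 0.73 ± 0.44 SE on the log2 scale, the mKate arm minus the GFP arm. That of lys-4 was 0.01 ± 0.58 SE. With the replicate number as a block, added after the data were seen, 0 of the 6 genes were called (limma adjusted p from 0.149 to 0.995). Of all genes, 6.54% were called there at an adjusted p under 0.05. An unadjusted p under 0.05 was found for 3 of the 6, lys-1, lys-2 and lys-8. The share of all genes with such an unadjusted p was not computed for this contrast, so this count has nothing to be set against.

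Ratios of genes within a library do not depend on how libraries are scaled. They were chosen after the values were seen and are given as a description, over 7 ratios computed from deposited TPM. How often ratios of other gene pairs set groups apart was not computed. In the 7 comparisons the groups did not overlap for 18.5 to 36.9% of single genes. The cluster neighbours lys-1 and lys-2 kept a ratio of 4.62 to 6.60 in 14 of 15 libraries, and mKate-tag control replicate 1 stood at 8.86. The ratio of lys-1 to lys-3 was 4.04, 5.66 and 8.57 in the mKate-tag control and at least 12.7 in every other library.

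The ratio of lys-8 to lys-1 was highest in total RNA, at 1.82, 1.92 and 2.31. It was 1.41, 1.31 and 1.85 in IFE-1 pull-down and 1.41, 1.46 and 1.78 in IFE-3 pull-down. In the tag controls it was 0.732, 0.823 and 1.42 with mKate and 0.939, 0.937 and 1.14 with GFP. All total RNA libraries were thus above all libraries of IFE-3 pull-down and of both tag controls, and only IFE-1 pull-down replicate 3 reached their range. The GFP-tag control also lay below both IFE pull-downs without overlap, while the mKate-tag control overlapped them through its replicate 3.

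The ratio of lys-1 to lys-7 set the GFP-tag control apart, with at least 4.04 there and at most 3.57 in the other 4 groups. The ratio of lys-4 to lys-1 was 0.516, 0.680 and 0.931 in the GFP-tag control, and 1.09 to 1.44 in all other pull-down libraries. In total RNA it was 0.871, 1.38 and 1.00, which overlapped both ranges. Of the summed lysozyme TPM, lys-8 made up 42.9 ± 4.45% in total RNA, 34.3 ± 4.49% in IFE-1 pull-down and 36.0 ± 2.97% in IFE-3 pull-down (SD, n = 3 each). It made up 24.3 ± 6.46% in the mKate-tag control and 31.7 ± 0.916% in the GFP-tag control (SD, n = 3 each).

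**Figure D3:**
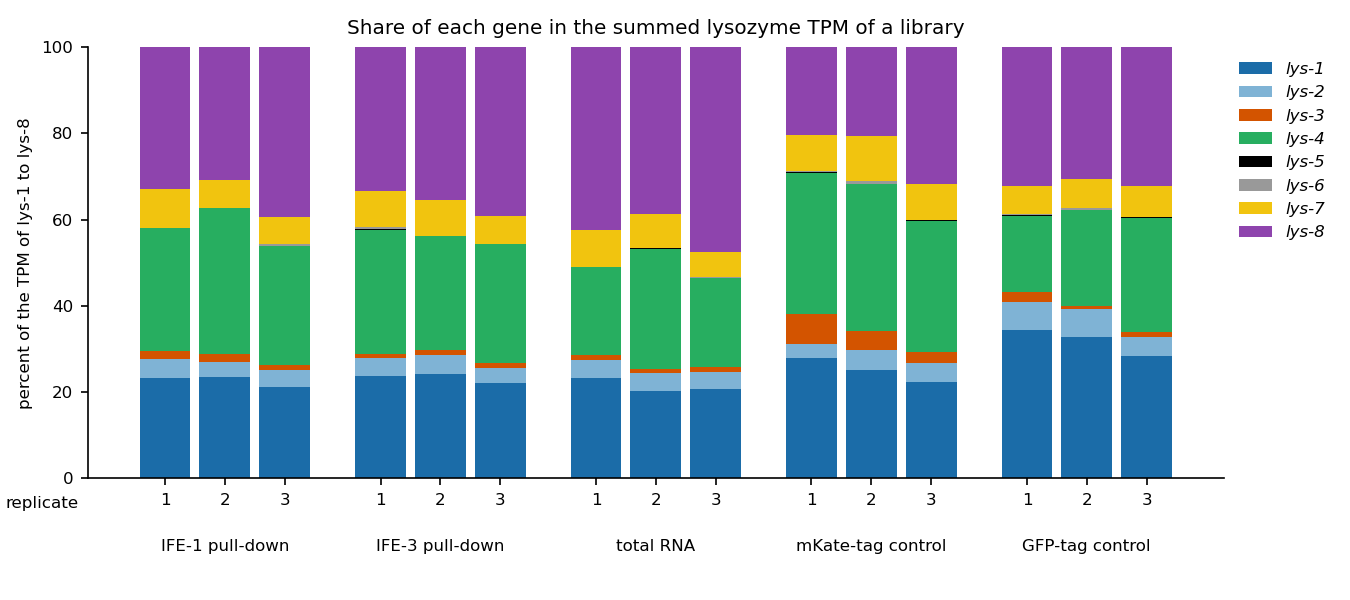
Percent of the summed TPM of lys-1 to lys-8 (y axis) held by each gene in every library (x axis, replicates by group). The part of lys-8 has its highest group mean in total RNA, where it lies between 38.7 and 47.6%, and that of lys-3 is largest in the mKate-tag control, between 2.61 and 6.92%.

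**Figure D4:**
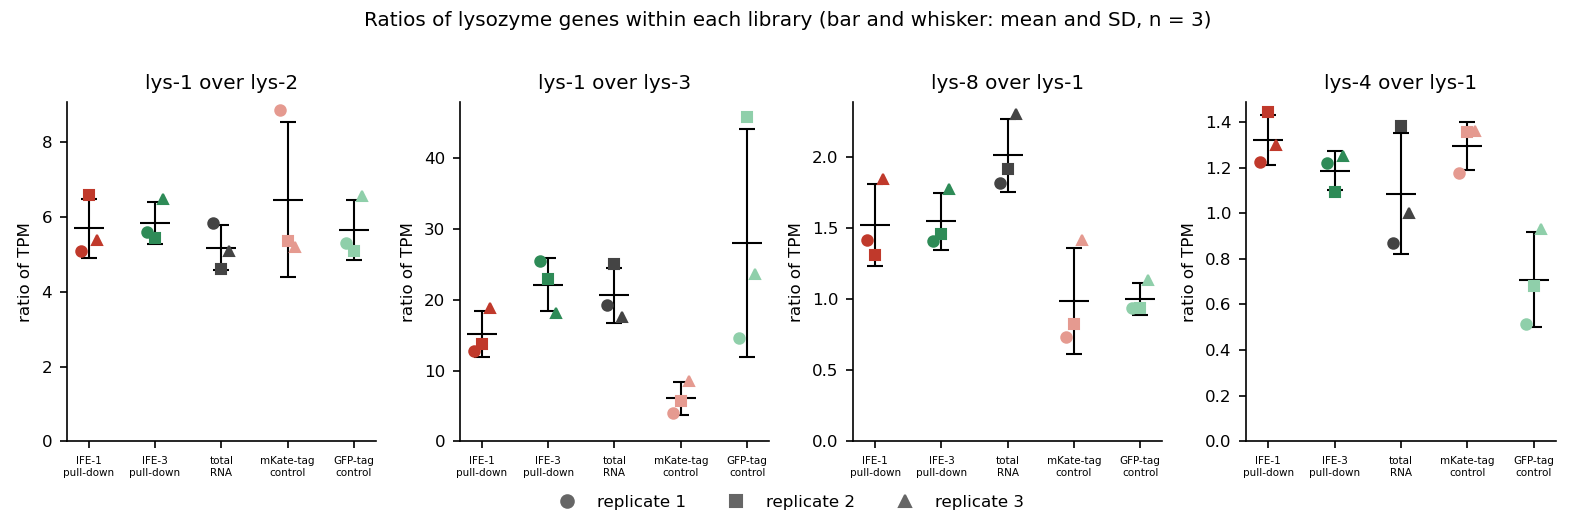
Ratio of TPM of 4 pairs of lysozyme genes (y axis) by group (x axis), with a point per library shaped by replicate and the mean and SD as bar and whisker. The ratio of lys-1 to lys-3 in the mKate-tag control lies below all other libraries, and the ratio of lys-8 to lys-1 lies at 1.82 and above in total RNA.

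Pooled over the 5 groups, the lysozyme genes other than lys-3 tended to rise and fall together between replicates. Deviations from the group mean on the log2 scale correlated with a Pearson r of 0.757 to 0.938 over the 15 libraries for the 10 pairs of lys-1, lys-2, lys-4, lys-7 and lys-8. For the 5 pairs with lys-3 the r was 0.366 to 0.695. The highest value joined lys-1 and lys-8, which lie on different chromosomes, and the cluster neighbours lys-1 and lys-2 had 0.838. The largest deviations of each gene were in a tag control, which weighs on these pooled values, and not every pair moved together in each group. In replicates 1, 2 and 3 of total RNA lys-4 deviated by -0.12, 0.01 and 0.11, and lys-7 by 0.22, -0.15 and -0.07. The genes of a pair share their libraries, and group size leaves 2 free deviations per group, so the r values are a description. This r was not computed for other pairs of genes, so it is not known whether it is particular to the set.

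Replicate 3 was the highest library of its group in all 5 groups for 4 genes, lys-1, lys-2, lys-4 and lys-8. Of the 14308 genes measured, 5.77% had this property, and 6.37% with TPM as deposited, where the same count of 4 was found. The gene lys-3 had it in 3 groups and lys-7 in 3. The high replicate 3 of these 4 genes thus appeared in both IFE pull-downs, in total RNA and in the tag controls, which are other strains. What the replicates of a number share is not given in the labels.

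**Figure D5:**
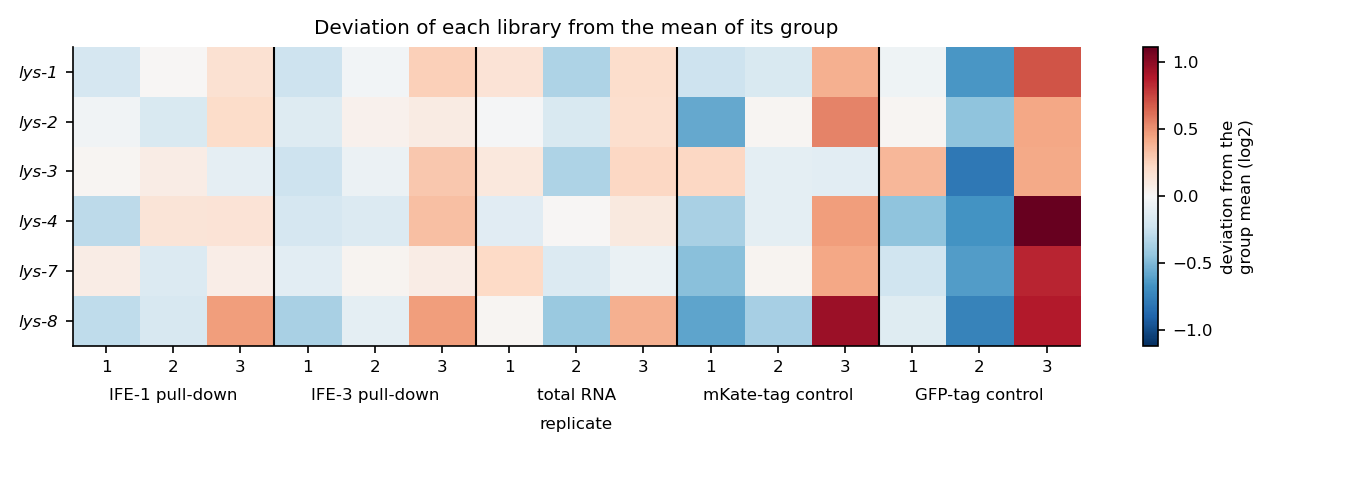
Deviation of each library from the mean of its group on the log2(scaled TPM + 1) scale (colour), for the 6 measured genes (y axis) in the 15 libraries (x axis, replicates by group). The column of replicate 3 is above the group mean for lys-1, lys-2, lys-4 and lys-8 in every group, and the row of lys-3 departs from the others in the mKate-tag control.

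The genes most like a member over all 15 libraries were found for lys-8. WBGene00004995 correlated with it by a Pearson r of 0.974 and WBGene00021883 by 0.972, on log2(scaled TPM + 1) over 3382 genes whose mean reached 10 scaled TPM. By the same measure lys-1 ranked 505 for lys-8, with an r of 0.677, and lys-4 ranked 760, with an r of 0.590. Many genes outside the set thus followed lys-8 more closely than lys-1 and lys-4 did. This was not particular to lys-8, since lys-8 itself ranked 191 for lys-1 and 386 for lys-4.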

How the data were processed

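The authors deposited TPM values per gene for 15 libraries. WBcel235, R 4.4.1, kallisto 0.48.0 and DESeq2 1.34.0 are listed without a role, per the submitters' processing notes. TPM keeps no depth, so no count test, interval for counts or detection floor was possible. From it, libraries were divided by median-ratio factors, and the log2 of this value plus 1 entered limma 3.58.1 under R 4.3.3 for genes that reached 1 TPM in 3 or more libraries of a fit (lmFit, then eBayes with trend, two-sided, Benjamini-Hochberg over all genes tested). IFE-1 pull-down, IFE-3 pull-down and total RNA shared a fit of 9 libraries, as did both tag controls and total RNA, and each pull-down against its own control was a fit of 6. The code was tested on simulated data.

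The members, gene lists and tests were chosen with earlier results of these data known. All 8 members were to be named, with the 2 genes most like a member. Lists of other lysozyme, antimicrobial, digestive and regulatory genes and of cell type markers need symbols and were not applied, since 0 of 46934 IDs matched the gene table of 46926 genes. The summed share of TPM is given without a test, because the set was not chosen independently. Fold changes of single genes are given where groups did not overlap, the unadjusted p was under 0.05 or any fit called the gene, and for lys-8.

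Replicate numbers are shared by all groups. Deviations from group means of same-numbered libraries correlated by 0.158, 0.120 and 0.276 between the IFE pull-downs, 0.130, 0.115 and 0.270 between IFE-1 pull-down and its control, and 0.143, 0.139 and 0.217 between IFE-3 pull-down and its control, and were taken to pair them. This pairing comes from the data. With total RNA the values were lower, from -0.008 to 0.112 for the same number, and unlike numbers reached 0.046. The replicate block was fitted there too. The labels' batch is the trap or the lysate, so it cannot be told apart from the group unless a pull-down is set against its own control. Alternatives were a replicate block, TPM as deposited, pseudocounts of 0.1 and 5, a filter at 5 TPM, no filter, a single fit of 15 libraries and each library left out. The contrast between the arms, the ratios and the replicate comparison were added after the data were seen.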

Additional observations from a re-analysis of the deposited data

How the results depend on the processing

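The count of lysozyme genes called stayed at 0 in every alternative for 4 of the 7 comparisons, both IFE pull-downs against total RNA, IFE-1 pull-down against IFE-3 pull-down and IFE-3 pull-down against GFP-tag control. For IFE-1 pull-down against mKate-tag control it was 1 with the replicate block and ran from 0 to 2 with a library left out. The replicate block changed no other call, also in the contrast between the arms. For mKate-tag control against total RNA it was 1 with TPM as deposited and again 1 when 1 fit took all 15 libraries, and for GFP-tag control against total RNA it was 1 with TPM as deposited. The cause of these changes was not tested. Of 87 values of the 7 fold changes that met the rule for description, 81 kept their side of the threshold, 6 passed it and 0 changed sign. Among all 42 tested fold changes the sign turned in 17 with TPM as deposited, the largest of which was 0.51 in size with scaled libraries, and in 40 of 249 fits with a library left out. Pseudocounts of 0.1 and 5, the filters, the block and the fit of 15 libraries turned 0 signs. The filter at 5 TPM left 31 of the 42 to be tested.

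The share of TPM held by the set rose when the 10 highest genes were taken out of the total, to 0.0350% in IFE-1 pull-down, 0.0280% in IFE-3 pull-down, 0.0370% in total RNA, 0.0412% in mKate-tag control and 0.0436% in GFP-tag control, since the total is smaller. With that total the mean of total RNA turned from below to above those of both IFE pull-downs. With the full total and a library left out, the share in GFP-tag control ran from 0.0109 to 0.0189%. Depth is unknown and could not be weighed for lys-3, lys-5 and lys-6, which are low.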
